A study of Mus musculus with 21 samples.

Results

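Aggregates of mouse nephron progenitors that had spent 24 h in BIO were followed through a further 24 h in DMSO, and the 3 arrays taken at the end of that day were compared with the 3 arrays of aggregates harvested after the 24 h of BIO. These 6 arrays were chosen by their sample titles out of 21 in the series, and every measured gene entered the comparison. The series held 7 groups of 3 arrays: freshly sorted cells, cells cultured dispersed in DMSO or in BIO for 24 h, aggregates cultured in DMSO or in BIO for 24 h, and aggregates given BIO for 24 h and then DMSO or BIO until 48 h. All cells were sorted as Six2-positive from E16.5 kidneys that carried the BAC transgene Six2GFPcre, which marks cells in which the Six2 regulatory region is active, on a mixed genetic background. Each aggregate held 40000 cells spun into an aggregate and kept in DMEM with 10% fetal bovine serum. BIO was given at 4 µM, DMSO was given in the same volume, and the medium was changed at 24 h in both 48 h groups. The labels call the 3 arrays of a group biological replicates without naming litters or cultures, so the p-values measure the spread between these arrays.

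BIO inhibits GSK3, the kinase that marks beta-catenin for destruction, so that beta-catenin accumulates and acts with TCF and LEF factors on Wnt target genes. In the developing kidney, Wnt signals from the ureteric bud act on the Six2-positive cap mesenchyme both to maintain progenitors and to start their conversion into a pretubular aggregate and then an epithelial renal vesicle, the precursor of podocytes and tubule. Wnt targets include many secreted and membrane inhibitors of the pathway, which act as feedback. The labels describe the BIO day followed by DMSO as transient activation of the pathway and BIO on both days as lasting activation. No group spent 48 h in DMSO alone, so the removal of BIO, the added day in culture and the change of medium cannot be told apart in the comparison with the 24 h arrays. A second comparison, with aggregates kept in BIO until 48 h, holds age and medium change equal.

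The RNA controls on the arrays differed between the groups. The signal for the 3' end of beta-actin was 2669, 3040 and 5410 on the BIO 24 h arrays (3706 ± 1487, SD, n = 3) and 12844, 12165 and 11973 after the DMSO day (12328 ± 458). It was 8300 ± 2612 in aggregates kept in BIO until 48 h and 10556 ± 2545 in aggregates after 24 h in DMSO. The ratio of the 3' to the 5' Gapdh signal, which rises with RNA fragmentation and short amplification products, was 13.4 ± 1.93 at 24 h of BIO and 10.8 ± 1.38 after the DMSO day. Beta-actin is itself a serum response gene, and its part in the results was not tested apart from fits that held its signal as a covariate. That covariate follows the 2 groups so closely that the median standard error of a change rose from 0.21 to 0.42 on the log2 scale. Calls of the DMSO day that it ended are given beside the genes whose changes are printed. Six2, which defines the cap mesenchyme, was detected on all 6 arrays, whereas Cited1, a marker of the least committed progenitors, had a mean signal of 139 in fresh cells and lay below background on both sides of the comparison (5.2 and 4.94). Background was set at a signal of 41.8, the 95th percentile of 27 control probe sets for bacterial transcripts.

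**Figure D1:**
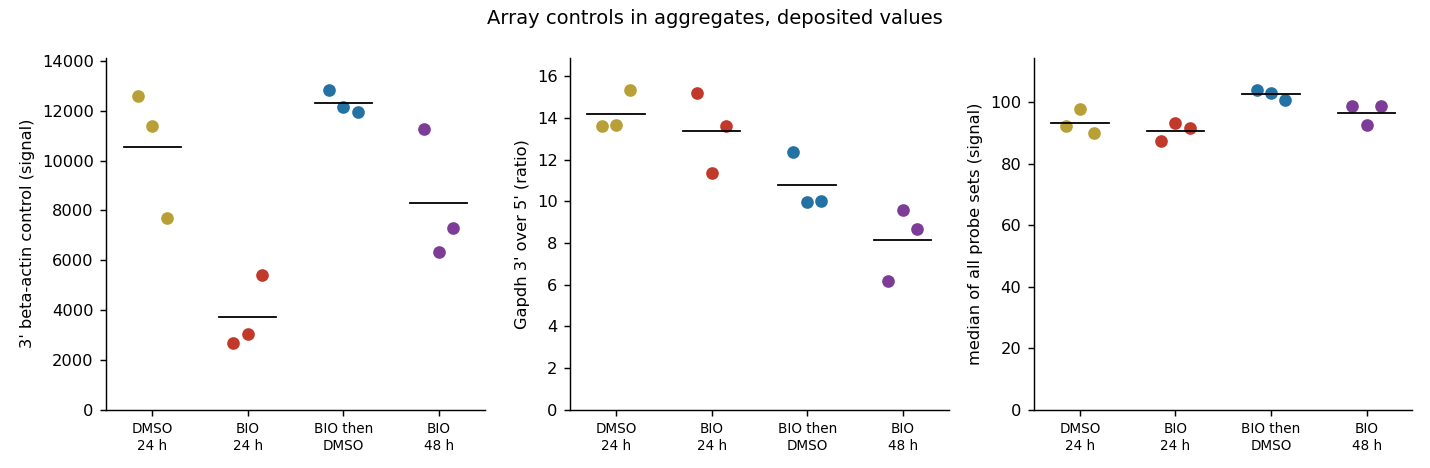
Array controls in the 4 aggregate groups, 1 point per array with a line at the group mean: the signal of the beta-actin 3' probe set, the ratio of 3' to 5' Gapdh signal and the median signal of the array. The beta-actin signals of the 3 BIO 24 h arrays lay between 2669 and 5410, apart from the 11973 to 12844 of the 3 arrays taken after the DMSO day.

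Over the DMSO day 1575 of 18193 genes rose and 2946 fell at a Benjamini-Hochberg adjusted p under 0.05 in a limma fit over all 21 arrays, which is 24.9% of the genes (8.66% higher and 16.2% lower). At least 2-fold changes numbered 712 upward and 815 downward, or 8.39% of the genes (3.91% and 4.48%). The median change of all genes was -0.16 on the log2 scale after quantile normalization and -0.04 with the arrays scaled as deposited. With that scaling 1981 genes rose and 1783 fell, so 52.6% of the calls were upward against 34.8%, and centring each array on its median gave 27.1%. Changes are given as differences in log2(normalized signal + 1) with the standard error of the fit, for 3 arrays a group, and each p is limma's adjusted p over all 18193 genes. Kept in BIO for the same day, aggregates had 1464 genes higher and 2328 lower than at 24 h, 20.8% of the genes (8.05% and 12.8%). Between the pair of 48 h groups 1690 genes were higher after DMSO and 2021 lower, 20.4% of the genes (9.29% and 11.1%). The 24 h arrays cancel in this last contrast, which therefore tests the difference between the DMSO day and the BIO day. Ccnd1, Bambi, Tnfrsf19, Wt1, Pax8, Nphs1, Foxd1, Acta2, Srf, Mki67 and Cdk1 lay outside the rule by which genes were named and were chosen after their values were seen. The 3 comparisons share groups, so their values are set side by side and not as independent evidence. Every list count below is to be read against the share of all genes in the same comparison.

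Most Wnt feedback and target genes fell over the DMSO day. Of 20 measured, 12 fell and 4 rose, against 16.2% and 8.66% of all genes, and the median change was -0.97 against -0.16. Notum, a secreted enzyme that inactivates Wnt ligands, had normalized signals of 3842, 4432 and 3165 after 24 h of BIO and 157, 174 and 127 after the DMSO day. The groups lay far apart, and Notum fell by 4.63 ± 0.19 (adjusted p = 1.23e-10), a 24.8-fold lower level. After 48 h of BIO its signals were 5175, 4889.7 and 4545, and after 24 h of DMSO 145, 109 and 105. The level after the DMSO day thus lay close to that of aggregates that had never received BIO, a pair that was not tested against each other.

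Sp5, a transcription factor induced directly by Wnt signalling, gave 2064, 2208 and 1659.6 after BIO and 44.2, 72.1 and 39.5 after the DMSO day, and it fell by 5.26 ± 0.46 (adjusted p = 4.97e-07). Fgf20, a growth factor that maintains nephron progenitors, went from 295, 265 and 235 to 8.4, 2.5 and 6.9, which is at least 6.18-fold lower since the later arrays were below background (-5.38 ± 0.34, adjusted p = 1.19e-08). Neither gene had overlapping groups, and with BIO kept to 48 h neither change passed, with signals of 1955, 1675 and 1859.8 for Sp5 and 191, 254 and 243 for Fgf20. Axin2, the scaffold of the destruction complex and a general Wnt target, gave 3733, 3798 and 3056 and then 520.4, 678 and 698. All 3 later arrays were lower, and Axin2 fell by 2.49 ± 0.17 (adjusted p = 2.95e-08) to a level still above the 323, 356 and 375 of DMSO aggregates. Averaged over its probe sets the change of Axin2 was -1.01 and did not pass (adjusted p = 0.149). Lef1, a partner of beta-catenin on DNA, fell by 1.04 ± 0.17 (adjusted p = 0.000368), from 2361, 2517 and 1741 to 992, 1074 and 1118, again without overlap. Its mean in DMSO aggregates was 196.

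Wif1, a secreted inhibitor that binds Wnt proteins, moved in opposite directions on the second day. Its signals were 238, 374 and 174 after 24 h of BIO, 40.0, 21.7 and 32.5 after the DMSO day and 4522, 5060.3 and 4657 after the second BIO day. It was at least 5.84-fold lower after DMSO (-2.99 ± 0.40, adjusted p = 4.44e-05), it was higher after the second BIO day (4.24 ± 0.40, adjusted p = 1.46e-06), and between the 48 h groups it was at least 111-fold lower after DMSO (-7.24 ± 0.40, adjusted p = 2.54e-09). The 4 genes of the list that rose were Bambi, Lgr5, Ccnd1 and Trabd2b. Ccnd1, which encodes cyclin D1 and drives entry into S phase, gave 732, 1207 and 1057 and then 3511, 4069.5 and 4986 and rose by 2.08 ± 0.21 (adjusted p = 2.57e-06). Bambi, a decoy receptor of the TGF-beta family, rose by 1.12 ± 0.17 (adjusted p = 0.00017) with DMSO and rose by 1.52 ± 0.17 (adjusted p = 8.85e-06) with BIO kept. Both DMSO day calls were lost with the beta-actin covariate, at 1.20 for Ccnd1 (adjusted p = 0.0919) and 1.33 for Bambi (0.0534). Between the 48 h groups 14 of the 20 genes were lower after DMSO and 2 were higher, with a median of -2.25. With beta-actin as a covariate 7 of the 20 fell over the DMSO day and 1 rose, and the calls for Lef1 (adjusted p = 0.681) and Wif1 (0.11) were lost, while the 14 lower calls between the 48 h groups were as many as without it.

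The promoters of 2 of these genes are shown for the letters that TCF and LEF factors are known to bind, CTTTGA on either strand, printed in capitals. Both are the 250 bases before the annotated start in RefSeq on GRCm38.p6, 5' to 3' in the direction of transcription, at chr2:70474673-70474922 on the plus strand for Sp5 and chr14:61037988-61038237 on the minus strand for Tnfrsf19, a receptor of the TNF family.
Sp5: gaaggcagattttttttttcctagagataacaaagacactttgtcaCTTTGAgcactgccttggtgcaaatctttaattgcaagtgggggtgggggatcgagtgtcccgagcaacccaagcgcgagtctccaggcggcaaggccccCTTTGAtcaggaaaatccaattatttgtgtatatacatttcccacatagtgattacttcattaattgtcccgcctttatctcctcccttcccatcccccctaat
Tnfrsf19: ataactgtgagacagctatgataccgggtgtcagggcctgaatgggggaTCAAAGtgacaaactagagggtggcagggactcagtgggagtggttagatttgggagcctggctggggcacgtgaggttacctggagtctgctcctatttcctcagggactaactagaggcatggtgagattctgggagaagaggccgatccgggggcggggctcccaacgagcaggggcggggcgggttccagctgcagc
The matches begin at -204 and -104 from the start of Sp5 and at -201 from that of Tnfrsf19. Tnfrsf19 gave 3166, 3606 and 3116 after BIO and 668, 860.3 and 790.2 after the DMSO day, and fell by 2.10 ± 0.17 (adjusted p = 1.56e-07). Windows were at hand for 14452 genes, and 2053 of them (14.2%) held the letters. They were present in 95 of 619 genes that fell at least 2-fold (15.3%), in 67 of 536 that rose as much (12.5%) and in 5 of the 11 Wnt feedback genes with a window (45.5%). Beside Sp5 and Tnfrsf19, these Wnt feedback genes were Lef1, which fell, and Dkk1 and Sp8, which did not pass. A match describes the letters of this window and no measured binding.

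Among 27 Wnt ligands, receptors and R-spondins 5 rose (18.5%) and 7 fell (25.9%), against 8.66% and 16.2% of all genes, with a median of -0.26 close to the -0.16 of all genes. In the fit with beta-actin 3 rose and 3 fell. The ligand Wnt6 gave 1032, 1098 and 1248 and then 174, 166 and 147, with no overlap, and fell by 2.79 ± 0.12 (adjusted p = 1.65e-10). It reached 2780.2, 3210.1 and 2716 when BIO was kept, and the 48 h groups differed by -4.15 ± 0.12 (adjusted p = 1.62e-12). Rspo3, an R-spondin that amplifies Wnt signals by stabilising receptors, fell by 2.16 ± 0.17 (adjusted p = 1.21e-07), from 762, 829 and 569 to 137, 214 and 136. Its level in aggregates after 24 h of DMSO was 2290.4, 2648 and 2774, the highest of the 4 aggregate groups. Lgr6, a receptor for R-spondins, fell by 2.28 ± 0.29 (adjusted p = 3.33e-05) but did not pass with the beta-actin covariate (adjusted p = 0.063). The receptor Fzd4 moved the other way, from 497, 461 and 422 to 2119, 1810.4 and 1748, and rose by 2.04 ± 0.11 (adjusted p = 1.5e-09), while it fell by 1.22 ± 0.11 (adjusted p = 6.21e-07) over a second BIO day to 214, 168 and 211. Wnt4, the ligand that drives the mesenchymal to epithelial transition, did not pass, at 4189, 4877 and 5764 and then 3127, 4307 and 5056 with overlapping groups (-0.26 ± 0.18, adjusted p = 0.302). Its mean over probe sets was lower by a called difference (-0.73, adjusted p = 0.00181), as was its change with the Gapdh ratio as a covariate (-0.57, 0.0284). Of 12 genes of the destruction complex and its nuclear partners 1 changed: Tcf7l1, a TCF that represses targets, was higher (2.02 ± 0.43, adjusted p = 0.00256), and its sign turned with the beta-actin covariate (-0.42, adjusted p = 0.781). Ctnnb1, Apc, Axin1 and Gsk3b were among the 11 that did not pass.

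Most genes of the cap mesenchyme fell. Of 17 nephron progenitor genes measured 9 fell and 1 rose, against 16.2% and 8.66% of all genes, and the median change was -0.71. Over the BIO day 7 of them fell and 1 rose, with a median of -0.725. Between the 48 h groups 4 were higher after DMSO and 7 lower, with a median of -0.09. Gdnf, the ligand by which the cap mesenchyme draws out the ureteric bud, gave 1653, 1760.2 and 1666 after BIO and 191, 84.0 and 34.2 after the DMSO day. All 3 later arrays were lower, by 20.4-fold, and Gdnf fell by 4.35 ± 0.39 (adjusted p = 6.03e-07). Kept in BIO, the aggregates held Gdnf at 1009.8, 1077 and 987 (-0.73 ± 0.39, adjusted p = 0.214), and fresh cells had 2817, 2859 and 2662. Six2, the transcription factor that maintains the progenitors, fell by 1.04 ± 0.12 (adjusted p = 1.35e-05), from 1906, 1675 and 1804 to 889, 975 and 760.3. It fell more over the BIO day, to 407, 526 and 541, and was therefore higher after DMSO than after BIO at 48 h (0.84 ± 0.12, adjusted p = 0.000104). Both 48 h groups lay below the 4056, 4829.5 and 5163 of aggregates after 24 h in DMSO and the 9269.6, 8752 and 8565 of fresh cells.

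Spock2, an extracellular proteoglycan, went from 844, 1007 and 792 to 79.2, 110.1 and 30.4 and fell by 3.75 ± 0.31 (adjusted p = 2.92e-07). Crym, a thyroid hormone binding protein, fell by 3.13 ± 0.15 (adjusted p = 5.8e-10), from 841, 859.7 and 973 to 112, 125 and 73.6. For both genes every later array was lower than every earlier one, and both were lower after DMSO than after BIO at 48 h (Spock2 -3.49 ± 0.31, adjusted p = 5.14e-07, and Crym -2.22 ± 0.15, adjusted p = 2.31e-08). Itga8, the integrin subunit of the cap mesenchyme that binds nephronectin, fell by 1.79 ± 0.12 (adjusted p = 1.7e-08) with DMSO and fell by 1.70 ± 0.12 (adjusted p = 6.14e-08) with BIO, and the 48 h groups did not pass the test of their difference (-0.09 ± 0.12, adjusted p = 0.664). Eya1, Sall1, Uncx and Hoxd11 were the other members that fell. Wt1, a regulator of progenitors and later of podocytes, was the member that rose, from 1601, 1236 and 1165 to 3670.3, 4214 and 3843 (1.56 ± 0.15, adjusted p = 1.16e-06). With the beta-actin covariate 5 of the 17 fell, and Six2 did not pass (adjusted p = 0.178).

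**Figure D2:**
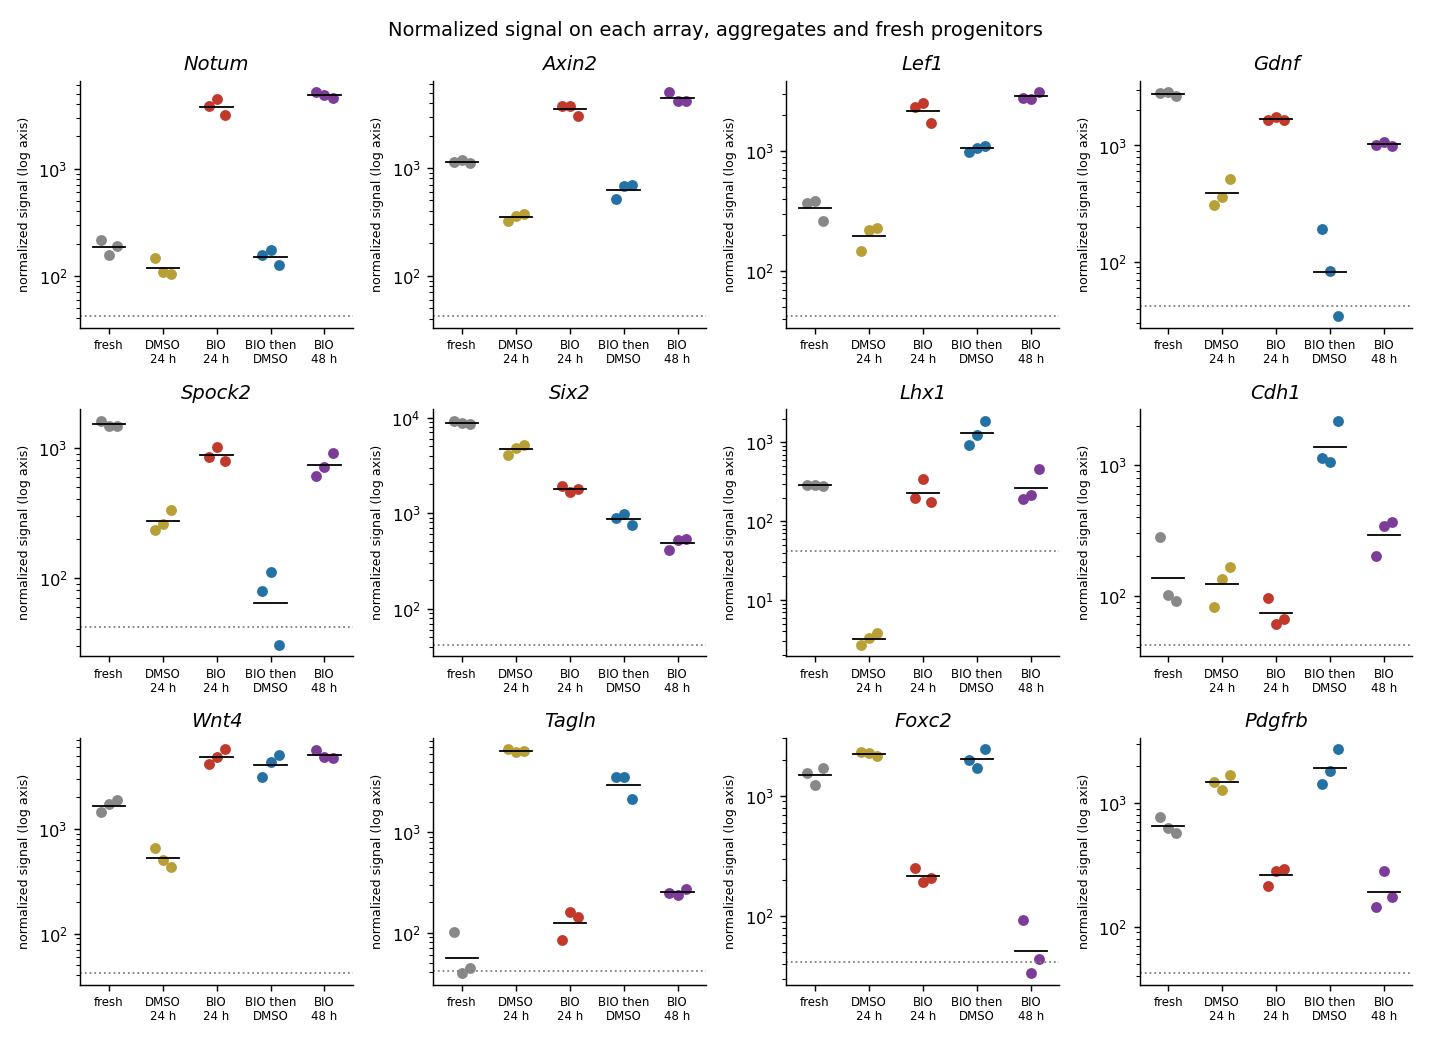
Normalized signal of 12 genes on each array, on a log axis, in fresh cells, aggregates after 24 h of DMSO, 24 h of BIO, BIO then DMSO, and 48 h of BIO; black lines are group means (of log2 values, turned back to signal) and the dotted line is the background of 41.8. Notum, Axin2, Gdnf and Spock2 are lower on all 3 BIO then DMSO arrays than on all 3 BIO 24 h arrays, Lhx1, Cdh1, Tagln, Foxc2 and Pdgfrb are higher, and Wnt4 overlaps.

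Genes of the pretubular aggregate and renal vesicle rose more often than they fell. Of 18 measured 9 rose (50%) and 2 fell (11.1%), against 8.66% and 16.2% of all genes, with a median of 0.56. One that fell, the growth factor Fgf8, lay below background on both sides, with means of 27.9 and 6.23. Its call was lost without BIO then DMSO replicate 2 or 3 or BIO 24 h replicate 1 or 2 (adjusted p from 0.0794 to 0.174). Lhx1, a homeobox factor needed for the renal vesicle, gave 198, 346 and 177 after BIO and 934, 1243 and 1886 after the DMSO day. It rose by 2.49 ± 0.32 (adjusted p = 2.98e-05), a 5.63-fold rise with all 3 later arrays above the earlier ones, whereas after a second BIO day it was 192, 214 and 461 (0.22 ± 0.32, adjusted p = 0.702). Aggregates after 24 h in DMSO had Lhx1 below background, at 2.7, 3.3 and 3.8. Cdh6, a cadherin of early nephron epithelium, rose by 1.63 ± 0.11 (adjusted p = 3.55e-08), from 1601, 1529.9 and 1504 to 4998, 4965 and 4411, and fell by 1.42 ± 0.11 (adjusted p = 2.42e-07) with BIO kept. The 48 h groups differed by 3.06 ± 0.11 in Cdh6 (adjusted p = 2.71e-11).

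Emx2, a homeobox factor of the early nephron, and Papss2, an enzyme that makes the sulphate donor of proteoglycans, rose on both kinds of second day. Emx2 went from 217, 236 and 219 to 964, 1193 and 1918 with DMSO and 740.2, 982 and 1142 with BIO (changes 2.54 ± 0.27 and 2.07 ± 0.27, adjusted p = 3.68e-06 and 3.48e-05). Papss2 rose by 2.21 ± 0.29 (adjusted p = 3.53e-05) with DMSO and rose by 3.17 ± 0.29 (adjusted p = 1.02e-06) with BIO. Their 48 h groups differed by 0.47 ± 0.27 for Emx2, which did not pass (adjusted p = 0.255), and by -0.96 ± 0.29 for Papss2 (adjusted p = 0.0253). Pax8, a transcription factor that marks the pretubular aggregate, rose by 1.15 ± 0.11 (adjusted p = 1.77e-06), and Pou3f3, Npy, Tmem100 and Dll1 were the other members that rose. Cxcr4, a chemokine receptor, had the largest fall of all genes named here, from 2255, 2307 and 1629 to 2.5, 61.1 and 32.9, at least 42.1-fold lower (-6.71 ± 0.71, adjusted p = 4.09e-06), and did not pass with the beta-actin covariate (adjusted p = 0.0644). Jag1, the Notch ligand of the renal vesicle, did not pass, at 6110, 6837 and 5361 and 5231, 5753 and 6386, with overlapping groups (-0.07 ± 0.21, adjusted p = 0.833). Between the 48 h groups 6 of the 18 genes were higher after DMSO and 4 lower, and 4 and 4 without the arrays that stood apart from their group in the beta-actin signal (among these groups BIO 24 h replicate 3 and BIO 48 h replicate 1).

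Junction genes of epithelia rose in part. Of 21 epithelial junction and keratin genes 7 rose and 1 fell, against 8.66% and 16.2% of all genes, with a median of 0.19. Over the BIO day 8 rose and 1 fell, with a median of 0.285. Between the 48 h groups 2 were higher after DMSO and 6 lower, with a median of -0.24, against 9.29% and 11.1% of all genes. With 1 array left out, 2 to 5 were lower. Cdh1, which encodes E-cadherin, gave 96.3, 60.9 and 66.0 after BIO and 1133, 1068 and 2205 after the DMSO day, 18.8-fold higher with no overlap (4.23 ± 0.60, adjusted p = 7.87e-05). With BIO kept it reached 202, 339.6 and 371 (2.00 ± 0.60, adjusted p = 0.025), less than with DMSO (2.23 ± 0.60, adjusted p = 0.0132). Cdh16, a cadherin found in kidney tubules, went from 127, 76.9 and 247 to 2786, 1672 and 1683 and rose by 3.88 ± 0.88 (adjusted p = 0.00403). The tight junction gene Cldn7 was at least 4.31-fold higher after the DMSO day (2.61 ± 0.52, adjusted p = 0.00164) and rose by 4.31 ± 0.52 (adjusted p = 1.86e-05) over the BIO day, so that at 48 h it was lower with DMSO (-1.71 ± 0.52, adjusted p = 0.0288). Epcam, Ocln, Krt8 and Krt18 were among the 13 that did not pass. The calls for Cdh16 (adjusted p = 0.126) and Cldn7 (0.0577) were lost with the beta-actin covariate, 3 of the 21 then rose, and 3 rose in a fit of only the 6 arrays compared. Without BIO then DMSO replicate 2 the list had 4 higher genes, the fewest over the 6 fits that each left out 1 array.

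The lists for mature nephron segments differed in how many of their genes rose. Of 9 podocyte genes measured 6 rose (66.7%) and 1 fell (11.1%), against 8.66% and 16.2% of all genes, and the median was 1.68. Their signals summed to 1941 to 2150 after 24 h of BIO and 5875 to 7888 after the DMSO day. The sums were similar in fresh cells, 5923 to 7508, and in aggregates after 24 h of DMSO, 6545 to 7223. Foxc2, a transcription factor of podocyte precursors and of cap mesenchyme, gave 249.8, 191 and 209.8 and then 1970.4, 1706 and 2445, all higher, and rose by 3.22 ± 0.29 (adjusted p = 6.6e-07). It fell by 2.04 ± 0.29 (adjusted p = 8.75e-05) over the BIO day, to 93.7, 33.5 and 44.1, and the level after the DMSO day was near the 2329, 2270.2 and 2137 of aggregates after 24 h in DMSO. Clic5, a protein of podocyte foot processes, rose by 2.74 ± 0.60 (adjusted p = 0.00308), and Cdkn1c, a cell cycle inhibitor that marks podocytes, rose by 2.36 ± 0.22 (adjusted p = 1.27e-06). With BIO kept Cdkn1c rose as well (2.61 ± 0.22, adjusted p = 6.09e-07), and its 48 h groups did not pass the test of their difference (-0.25 ± 0.22, adjusted p = 0.509). The DMSO day calls of Clic5 and Cdkn1c were lost with the beta-actin covariate (adjusted p = 0.4 and 0.0543), where 3 of the 9 rose. Lmx1b was the member that fell. Nphs1, which encodes nephrin of the slit diaphragm, did not pass (0.25 ± 0.24, adjusted p = 0.493). Of 12 genes of the loop of Henle and distal tubule 3 rose (25%, against 8.66% of all genes), and 1 with the beta-actin covariate. Irx3, a homeobox factor of the intermediate nephron, rose by 2.51 ± 0.21 (adjusted p = 2.33e-07), from 235, 217 and 194 to 1339, 1022 and 1359. It rose as well with BIO kept (2.46 ± 0.21, adjusted p = 4.36e-07). Of 11 proximal tubule genes 1 rose (9.09%), near the share of all genes.

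Contractile and cytoskeletal genes that respond to serum response factor rose, with 2 exceptions. Of 17 measured 15 rose, against 8.66% of all genes, while Myh11 and Des did not pass, and the median change was 1.56. Tagln, an actin binding protein of smooth muscle, gave 83.3, 159 and 141 after BIO and 3515, 3504 and 2126 after the DMSO day, 23.9-fold higher (4.58 ± 0.31, adjusted p = 3.03e-08). Its level in aggregates after 24 h in DMSO was 6682, 6304 and 6445 and in fresh cells 101, 39.2 and 44.8. Acta2, smooth muscle alpha-actin, went from 2110.1, 2493 and 2425 to 11238, 10894 and 9975 and rose by 2.19 ± 0.09 (adjusted p = 1.98e-10). Cnn1, a calponin that binds actin, went from 3.6, 2 and 4.2, below background, to 151, 96.9 and 128, at least 2.9-fold higher (4.89 ± 0.27, adjusted p = 2.94e-09). Over a second BIO day 6 of the 17 rose and 1 fell, and at 48 h 15 were higher with DMSO than with BIO, with a median of 1.15.

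The promoters of Myl9 and Srf are shown for the CArG box, the site that serum response factor is known to bind, printed in capitals. They are RefSeq windows of the same length and build as above, at chr2:156775214-156775463 on the plus strand for Myl9 and chr17:46556163-46556412 on the minus strand for Srf.
Myl9: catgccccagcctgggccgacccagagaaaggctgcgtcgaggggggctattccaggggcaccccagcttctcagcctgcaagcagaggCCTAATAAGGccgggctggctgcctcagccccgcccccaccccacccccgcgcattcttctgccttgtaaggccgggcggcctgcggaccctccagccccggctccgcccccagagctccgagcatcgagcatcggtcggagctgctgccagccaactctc
Srf: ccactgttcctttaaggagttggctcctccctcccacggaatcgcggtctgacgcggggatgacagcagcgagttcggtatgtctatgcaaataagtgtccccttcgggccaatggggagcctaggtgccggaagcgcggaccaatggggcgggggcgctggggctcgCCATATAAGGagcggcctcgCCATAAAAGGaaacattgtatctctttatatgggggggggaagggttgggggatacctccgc
The box begins at -161 from the start of Myl9 and at -82 and -62 from that of Srf, and its pattern is its own reverse complement, so a match counts for both strands. Neither the CArG box nor CTTTGA can contain the other. Myl9, a regulatory light chain of myosin, gave 99.2, 135 and 157 and then 979.5, 980.3 and 818 with no overlap and rose by 2.84 ± 0.20 (adjusted p = 4.85e-08). Srf, the factor itself, rose by 0.29 ± 0.09 (adjusted p = 0.0333), from 1545, 1504 and 1313 to 1660.2, 1890.2 and 1765. Its call was lost without replicate 2 or 3 of either group (adjusted p from 0.0524 to 0.134), with the mean of probe sets (0.161), with median centring (0.126), with the replicate block (0.0526), with the Gapdh ratio covariate (0.0938) and in the fit of the 6 arrays (0.161). A CArG box was present in 207 of the 14452 windows (1.4%), in 15 of 536 genes that rose at least 2-fold (2.8%), in 9 of 619 that fell as much (1.5%) and in 4 of the 14 contractile genes with a window (28.6%). With beta-actin as a covariate 10 of the 17 contractile genes rose over the DMSO day, and 13 were higher with DMSO than with BIO at 48 h. Beta-actin is a gene of the same class.

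YAP and TAZ target genes also rose, 10 of 12 (Yap1 itself and Ajuba did not pass), with a median of 0.97. Ankrd1, a nuclear protein and widely used YAP reporter, gave 31.3, 28.7 and 36.2 after BIO, below background, and 483, 431 and 445 after the DMSO day. All 3 later arrays were higher, by at least 10.6-fold, and Ankrd1 rose by 3.78 ± 0.30 (adjusted p = 1.83e-07). Ccn2, the matricellular protein CTGF, went from 1029, 1101 and 1217 to 8273, 9335 and 7568 and rose by 2.91 ± 0.11 (adjusted p = 9.29e-11). Ccn1, which encodes CYR61, rose by 2.61 ± 0.16 (adjusted p = 9.92e-09), and F3, tissue factor, rose by 2.14 ± 0.29 (adjusted p = 5.56e-05). With BIO kept, Ccn2 was 958, 941 and 937 at 48 h and 1 of the 12 genes passed by limma, lower than at 24 h (1 higher and 3 lower at an unadjusted p under 0.05). At 48 h 9 of the 12 were higher with DMSO, with a median of 1.52. With the beta-actin covariate 8 of the 12 rose over the DMSO day and 10 were higher with DMSO at 48 h.

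**Figure D3:**
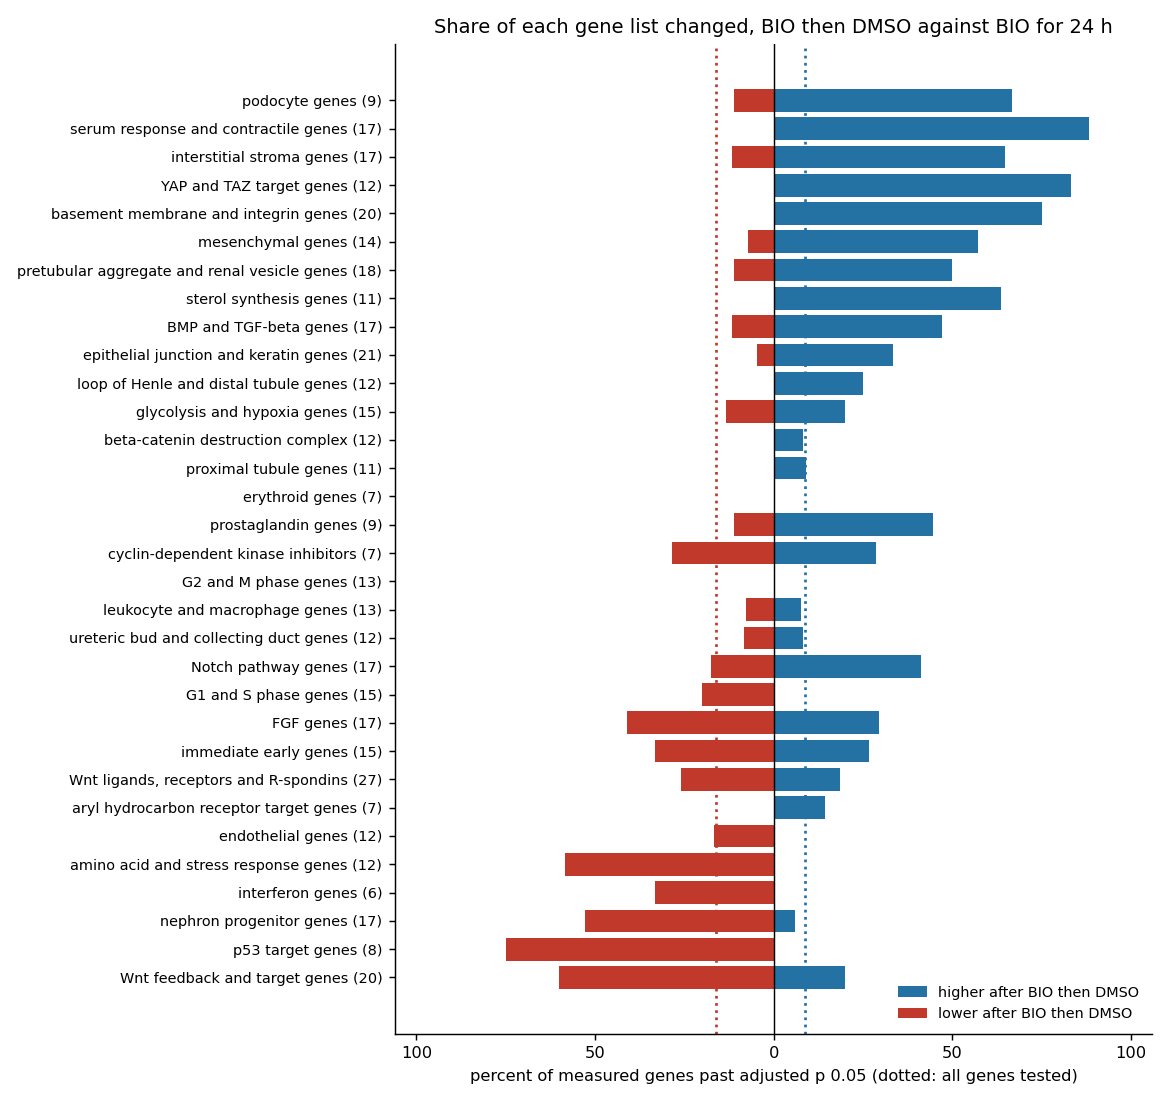
Share of each gene list that rose (blue) or fell (red) over the DMSO day, in percent of the measured genes given in parentheses, ordered by the median change of the list; dotted lines mark all genes, 8.66% higher and 16.2% lower. Wnt feedback, p53 and nephron progenitor genes have the lowest medians, and podocyte, contractile, stromal and YAP and TAZ genes the highest.

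Genes of the interstitial stroma and of mesenchymal cells rose as well. Of 17 stromal genes 11 rose and 2 fell, with a median of 1.08. Pdgfrb, the PDGF receptor of stromal and perivascular cells, gave 212, 282 and 293 and then 1424, 1827 and 2729.8, with no overlap, and rose by 2.89 ± 0.24 (adjusted p = 3.32e-07). Col1a2, a chain of type I collagen, rose by 2.74 ± 0.20 (adjusted p = 7.36e-08), from 364, 352 and 454 to 2798, 2275 and 2745. Ntn1, the secreted guidance cue netrin 1, rose by 1.71 ± 0.29 (adjusted p = 0.000392), and with the beta-actin covariate the change of Col1a2 was 1.71 and that of Ntn1 2.59, both past the threshold. Foxd1, the transcription factor that defines stromal progenitors, did not pass, at 883, 889.6 and 1096 and 1299, 1183 and 896 (0.23 ± 0.15, adjusted p = 0.288). Penk and Aldh1a2 fell. The signals of the 17 genes summed to between 22105 and 22741 on the BIO 24 h arrays, between 26816 and 28947 after the DMSO day and between 15699 and 17540 after 48 h of BIO. Higher sums were found in fresh cells, 40193 to 42008, and in aggregates after 24 h of DMSO, 33711 to 34151. The rise over the DMSO day thus left the sum below that of the cells first sorted. In RNA from whole aggregates, more cells of a type and more RNA per cell cannot be told apart. In fits of the mean of probe sets and of only the 6 arrays compared, 7 and 7 of the 17 rose, and 9 with the beta-actin covariate.

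Of 14 mesenchymal genes 8 rose and 1 fell, with a median of 0.76. Fn1, the matrix protein fibronectin, gave 2295, 2115 and 2199.9 and then 7461, 7229.6 and 5887 and rose by 1.63 ± 0.10 (adjusted p = 1.65e-08). Mmp2, a matrix metalloprotease, rose by 1.15 ± 0.09 (adjusted p = 2.04e-07), from 3003, 3109 and 3652 to 7542, 7626 and 6521. Both were higher on all 3 later arrays, while with BIO kept they changed by 0.16 ± 0.10 and -0.02 ± 0.09 (adjusted p = 0.326 and 0.939). Vim, the intermediate filament vimentin, rose by 1.05 ± 0.13 (adjusted p = 2.7e-05) and Zeb2, a repressor of E-cadherin, rose by 1.25 ± 0.24 (adjusted p = 0.00118), but neither passed with the beta-actin covariate (adjusted p = 0.181 and 0.179), where 2 of the 14 rose. Mesenchymal genes and Cdh1 were thus higher in the same aggregates.

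Basement membrane and integrin genes rose broadly, 15 of 20, with a median of 0.77. Lama1, the laminin chain of the early nephron basement membrane, gave 253, 234 and 287 and then 1021, 1029 and 1309, without overlap, and rose by 2.11 ± 0.25 (adjusted p = 1.35e-05). Nid1, nidogen, which links laminin to collagen IV, rose by 2.02 ± 0.11 (adjusted p = 3.39e-09), from 1325, 1302 and 1403 to 5805, 5974 and 4640.3, and fell by 0.39 ± 0.11 (adjusted p = 0.0195) over the BIO day. Between the 48 h groups 9 of the 20 were higher with DMSO and 2 lower. Over the DMSO day 9 of the 20 rose with the beta-actin covariate.

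Signalling genes outside the Wnt pathway moved in both directions. Of 17 BMP and TGF-beta genes 8 rose and 2 fell. Inhba, the subunit of activin A, had the largest rise of all named genes, from 7.2, 11.4 and 10.2, below background, to 2725, 2734 and 1877, at least 56.3-fold higher (7.85 ± 0.33, adjusted p = 1.98e-10). The mean over its 2 probe sets gave a change of 3.78, and the other probe set tested alone did not pass. With BIO kept it also rose, to 327, 184 and 149.6, and in DMSO aggregates at 24 h it was 1503, 1398 and 699. Bmp7, the BMP that supports progenitor survival, fell by 2.07 ± 0.13 (adjusted p = 1.78e-08), from 4461, 4487 and 3487 to 788, 1013 and 1192, near the 742, 733 and 844 of DMSO aggregates. Id4, an inhibitor of bHLH factors, rose by 1.87 ± 0.11 (adjusted p = 4.6e-09). With the beta-actin covariate 2 of these 17 rose and 1 fell, and 5 and 2 in the fit of the 6 arrays alone.

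Of 17 FGF genes 5 rose (29.4%) and 7 fell (41.2%), against 8.66% and 16.2% of all genes. Those that fell include Fgf8, which lay below background on both sides. Without BIO then DMSO replicate 1 or 2 or BIO 24 h replicate 2 or 3, 3 rose, and with the mean of probe sets or only the 6 arrays 2. Besides Fgf20, the FGF-induced transcription factor Etv4 fell by 1.99 ± 0.20 (adjusted p = 2.51e-06), from 368, 473 and 344 to 94.0, 126 and 79.3, though not when its probe sets were averaged (-0.77, adjusted p = 0.0993). Spry1, an inhibitor of FGF and GDNF signalling, rose by 1.27 ± 0.10 (adjusted p = 8.93e-08), from 2007, 2166 and 1616 to 4728, 4722 and 4439. In the fit with the beta-actin covariate 1 of the 17 rose and 2 fell. Of 17 Notch pathway genes 7 rose (41.2%) and 3 fell (17.6%, near the share of all genes), with 1 lower without BIO 24 h replicate 2 or 3. The receptor Notch1 rose by 1.25 ± 0.12 (adjusted p = 1.72e-06), from 701, 701 and 744 to 1554, 1677 and 1907. The ligand Dll1 rose by 1.10 ± 0.23 (adjusted p = 0.00235) and fell by 0.71 ± 0.23 (adjusted p = 0.0384) with BIO kept. The DMSO day call for Dll1 was lost with the beta-actin covariate (adjusted p = 0.0608) and in the fit of the 6 arrays (0.0736), in each of which 3 of the 17 Notch genes rose.

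Genes of G2 and M phase fell over the BIO day, and over the DMSO day none passed in the fit of all arrays. With DMSO 0 of the 13 measured passed by limma (0 higher and 1 lower at an unadjusted p under 0.05), at changes between -0.49 and 0.26 and adjusted p between 0.105 and 0.949, and the median was -0.05. All 13 were lower after a second BIO day, by 0.83 to 2.09, with a median of -1.25. Mki67, the proliferation antigen Ki-67, gave 6839.5, 6508 and 5759.6 after 24 h of BIO, 7856, 7100.1 and 7906 after the DMSO day and 2397, 2656 and 4360.2 after the BIO day. The BIO 48 h arrays were lower than both other groups, and Mki67 fell by 1.07 ± 0.17 (adjusted p = 0.000198) with BIO. Cdk1, the mitotic kinase, was at 5049, 5381 and 3888 after 24 h of BIO, at 4726, 4342 and 4529 after the DMSO day and at 1955, 1598 and 2512 after the BIO day. Birc5, survivin, had the largest change of the list with either treatment, -0.49 ± 0.21 with DMSO (adjusted p = 0.105) and -2.09 ± 0.21 with BIO (adjusted p = 3.04e-06). Its fall over the DMSO day passed without BIO 24 h replicate 3 (-0.65, adjusted p = 0.0488), without the arrays apart in beta-actin (-0.65, 0.0126) and with median centring (-0.61, 0.0468). The BIO day call of Mki67 was lost with the beta-actin covariate (adjusted p = 0.0622), with the Gapdh ratio covariate (0.0736) and in the fit of the arrays compared (0.0575).

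The difference between the 48 h groups passed for all 13 G2 and M genes, each higher after DMSO, by 0.92 to 1.60 and with a median of 1.33, against 9.29% of all genes. The count was 13 with either RNA control as a covariate, in the fit of the arrays compared and without any 1 array, and 12 with the mean of probe sets. For the BIO day alone it was 10 with the beta-actin covariate and 9 in the fit of the arrays compared. With the mean of probe sets 2 of the 13 rose over the DMSO day. Of 15 G1 and S phase genes 3 fell over the DMSO day (20%, near the 16.2% of all genes), and 1 without BIO then DMSO replicate 2 or BIO 24 h replicate 3. Over the BIO day 7 fell (46.7%, against 12.8%), but 3 in the fit of the arrays compared, 2 with the Gapdh ratio covariate and 4 with the beta-actin covariate. Among 7 inhibitors of cyclin-dependent kinases 2 rose and 2 fell over the DMSO day (28.6% each, against 8.66% and 16.2% of all genes). Without BIO then DMSO replicate 3 or BIO 24 h replicate 1 or 3, 1 fell. Cdkn1a, which encodes p21, fell by 1.07 ± 0.11 (adjusted p = 4.25e-06), from 8853, 8771 and 9800.4 to 5103, 4647 and 3464, and its mean over probe sets did not pass (0.06, adjusted p = 0.957). The other inhibitor that fell was Cdkn1b (-0.70 ± 0.21, adjusted p = 0.0214). Its mean over probe sets turned upward and did not pass (0.81, adjusted p = 0.165), and its other probe set tested alone was a called rise.

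**Figure D4:**
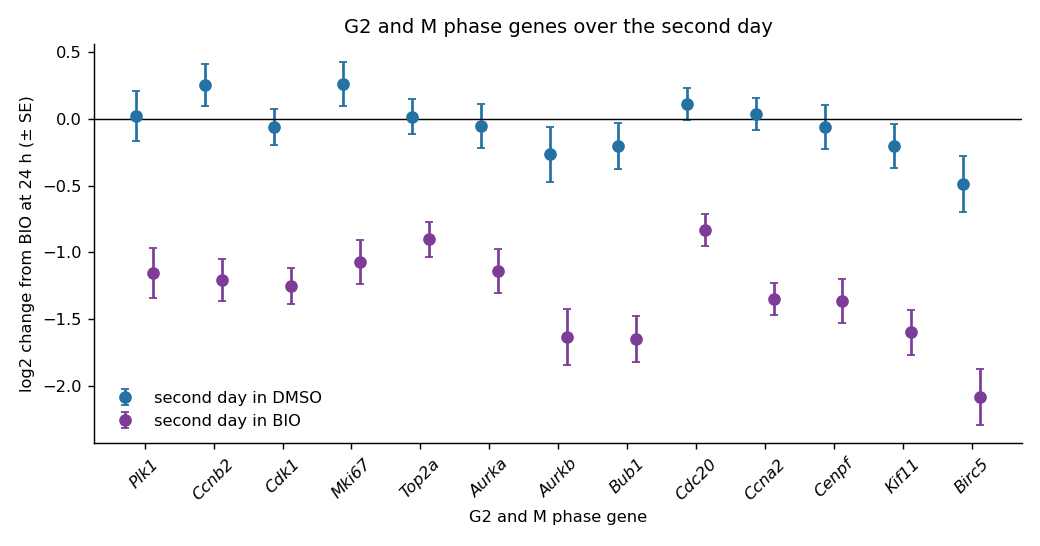
Change from the BIO 24 h arrays in 13 genes of G2 and M phase, as the difference in log2(normalized signal + 1) with its standard error (3 arrays a group), for the day in DMSO (blue) and the day in BIO (purple). The DMSO changes lie between -0.49 and 0.26 and none passed the test in this fit, and the 13 BIO changes lie between -2.09 and -0.83.

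Genes of the p53 and amino acid responses fell and those of sterol synthesis rose. Of 8 p53 target genes 6 fell, with a median of -0.79, and of 12 amino acid and stress response genes 7 fell, with a median of -0.43. Phlda3, a p53 target that restrains AKT, fell by 0.99 ± 0.13 (adjusted p = 4.31e-05), from 1073, 1021 and 1342 to 622, 599.5 and 503. Chac1, an enzyme that degrades glutathione and is induced by ATF4, fell by 2.13 ± 0.20 (adjusted p = 1.39e-06), from 1946, 2720 and 2059 to 503, 733 and 353, and Asns, asparagine synthetase, fell by 1.04 ± 0.12 (adjusted p = 6.61e-06). These fell with BIO kept as well, by 0.73 for Phlda3, 1.80 for Chac1 and 0.72 for Asns, and the 48 h groups did not differ by a called amount (adjusted p = 0.2, 0.305 and 0.0615). Of 11 sterol synthesis genes 7 rose, and Lss, lanosterol synthase, rose by 0.70 ± 0.12 (adjusted p = 0.000352). With the beta-actin covariate 2 of the p53 genes and 4 of the amino acid genes fell, and each of the 7 sterol calls was lost.

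Markers of endothelial, leukocyte, erythroid and ureteric bud cells changed less often than the 24.9% of all genes in either direction. That difference was not tested. The sort should leave out these cells and also interstitial stroma, whose genes changed more often, with 11 of 17 higher (64.7%) and 2 lower (11.8%). In the freshly sorted cells, however, the stromal genes summed to 40193 to 42008, above the 26816 to 28947 after the DMSO day. That list therefore cannot tell stromal cells apart from the sorted cells. Of 12 endothelial genes 2 fell (16.7%, against 16.2% of all genes), and their summed signal was 1225 to 1569 at 24 h of BIO and 998 to 1189 after the DMSO day. Of 13 leukocyte genes 1 rose (7.69%, near the 8.66% of all genes) and 1 fell (7.69%), with sums of 1112 to 1731 and 1088 to 1841. Of 7 erythroid genes 0 passed by limma (0 higher and 2 lower at an unadjusted p under 0.05), with sums of 376 to 533 and 371 to 475. Of 12 ureteric bud and collecting duct genes 1 rose (8.33%, near the share of all genes) and 1 fell (8.33%), with sums of 1273 to 1583 and 1240 to 1329. Below background on both sides were 3 of the endothelial, 6 of the leukocyte, 3 of the erythroid and 2 of the ureteric bud genes, and 0 of the 17 stromal genes. Called genes were among these, namely Plvap, an endothelial gene that fell, and C1qa, the leukocyte gene that rose. The call of C1qa was lost without BIO then DMSO replicate 2 (adjusted p = 0.13) or any 1 BIO 24 h array (0.0522 to 0.0662). The part of such cells in the results was not tested.

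Some calls of the BIO day and between the 48 h groups rested on single arrays. Among changes over the BIO day, that of Cdh1 was lost without replicate 2 or 3 of either group (adjusted p from 0.066 to 0.0779), that of Nid1 without replicate 3 of either group (0.0635 to 0.0954), and that of Dll1 without any 1 of the 6 arrays but BIO 24 h replicate 3 (0.0513 to 0.125). Averaging probe sets ended the BIO day call of Fzd4 (-0.71, adjusted p = 0.0971) and turned the sign of Nid1 (0.24, 0.669), whereas it made Fn1 a called rise (1.39, 2.31e-05). The lower level of Gdnf passed in the fit of the 6 arrays compared (adjusted p = 0.0148). Between the 48 h groups the call for Cdh1 was lost without BIO then DMSO replicate 3 or BIO 48 h replicate 1 (0.0548 to 0.0602), that for Cldn7 without replicate 2 of either group, BIO then DMSO replicate 1 or BIO 48 h replicate 3 (0.0622 to 0.125), and that for Papss2 without any 1 array but BIO then DMSO replicate 1 (0.055 to 0.101). Itga8 was lower after DMSO by a called amount with the mean of probe sets (-0.94, adjusted p = 0.00969). The Gapdh ratio covariate ended the BIO day calls of Cdh1 (adjusted p = 0.0917), Dll1 (0.362) and Nid1 (0.467) and those between the 48 h groups of Cdh1 (0.131) and Cldn7 (0.16). The beta-actin covariate ended the BIO day calls of Dll1 (adjusted p = 0.667) and Nid1 (0.171) and those between the 48 h groups of Cldn7 (0.179) and Papss2 (0.187).

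Other genes had changes as large as those above. Slc26a7, an anion transporter, gave 65.6, 31.5 and 66.7 after BIO and 3778, 3356 and 1597 after the DMSO day, and rose by 5.69 ± 0.32 (adjusted p = 4.26e-09). Its signals in aggregates after 24 h of DMSO were 1978, 1984 and 1723, and its mean in fresh cells was 1136. After the BIO day it lay below background, at 15.8, 24.2 and 34.3, at least 1.23-fold lower than at 24 h (-1.10 ± 0.32, adjusted p = 0.0217) and at least 63.6-fold lower than after the DMSO day (adjusted p = 4.21e-10). Ndnf, a secreted neurotrophic factor, rose by 4.61 ± 0.21 (adjusted p = 3.86e-10), from 151, 135 and 97.5 to 3576, 3133 and 2676, whereas with BIO kept it was 139, 135 and 141. Pcp4, a regulator of calmodulin, went from 18.9, 11.6 and 22.1 to 1311, 821 and 589, at least 20.1-fold higher (5.58 ± 0.33, adjusted p = 6.26e-09). Kif26a, a kinesin, Ms4a2, a chain of the IgE receptor, Tcf23, a bHLH factor, and Ldlrad4, an inhibitor of TGF-beta signalling, rose from below background, by at least 7.07-fold, at least 44.9-fold, at least 5.14-fold and at least 7.32-fold. Their adjusted p were 3.55e-08, 1.56e-07, 2.55e-06 and 0.000431. In aggregates after 24 h of DMSO the means were 5072 for Ms4a2 and 487 for Ldlrad4, above those after the DMSO day. Kif26a (2.3), Tcf23 (7.67), Ndnf (146) and Pcp4 (51.7) had low means there. Malat1, a nuclear noncoding RNA, and Taok3, a kinase, were higher by 5.23 ± 0.95 (adjusted p = 0.000741) and 4.54 ± 0.74 (0.000303, at least 6.09-fold since its mean after BIO was below background), but the sign of both turned with the beta-actin covariate, to -1.33 and -0.49 (adjusted p = 0.361 and 0.75).

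Among the largest falls, Epha3, a receptor of the ephrin family, gave 850.2, 928 and 613 and then 33.1, 48.3 and 44.2, at least 17.2-fold lower (-4.21 ± 0.19, adjusted p = 3.72e-10). Cpz, a carboxypeptidase with a frizzled-like domain, went from 202, 156 and 241 to 7.8, 8.2 and 8, at least 4.62-fold lower (-4.46 ± 0.32, adjusted p = 5.43e-08). With BIO kept neither change passed, at 797, 827 and 1066 for Epha3 and 213, 236 and 166 for Cpz. Ffar4, a receptor for fatty acids, fell by 4.08 ± 0.18 (adjusted p = 2.39e-10) with DMSO and fell by 1.50 ± 0.18 (adjusted p = 1.62e-05) with BIO. Plcd4, a phospholipase, and Pnliprp2, a lipase, fell to below background with either treatment, from 339, 210.1 and 314 for Plcd4 and 95.1, 62.2 and 66.7 for Pnliprp2, and their 48 h groups did not pass the test of a difference (adjusted p = 0.89 and 0.581). Zmynd12 and Epop ended below background, at least 2.17-fold and at least 2.6-fold lower (adjusted p = 3.59e-05 and 0.000305) and did not pass with the beta-actin covariate (adjusted p = 0.295 and 0.327). Averaging probe sets reduced the change of Epha3 to -1.89, of Plcd4 to -2.34, of Slc26a7 to 2.60, of Ms4a2 to 3.49 and of Ldlrad4 to 1.90, each still past the threshold. Tested alone, no other probe set of Plcd4 (2), Slc26a7 (1), Ms4a2 (1) or Ldlrad4 (3) passed, and 1 of 3 did for Epha3. Averaging moved Wnt6 to -4.31, Fn1 to 2.99, Zeb2 to 2.08, Clic5 to 1.36, Notch1 to 0.69 and Ntn1 to 0.82, again without loss of a call. The other probe set of Notch1 and that of Ntn1 did not pass alone. Adding 16 to the signals in place of 1 reduced the changes of genes near background, among them Kif26a (4.07), Tcf23 (3.55), Cnn1 (2.86) and Pnliprp2 (-2.23).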

How the data were processed

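Expression was measured on 1-colour oligonucleotide arrays after 2 rounds of RNA amplification and biotin labelling, per the labels' protocols. The authors deposited linear signal intensity values from 0.1 to 18025.33 for 45101 probe sets, and their scaling and software were not given in the sources used here. No 2 arrays shared more than 0.288% of their values. Values were turned into log2(value + 1) and quantile normalized over all arrays. The platform table and RefSeq symbols gave 34945 probe sets 1 symbol, 932 several and 9160 none, beside 64 controls. The probe set with the highest mean stood for each of 18193 genes. A group-means model over 21 arrays was fitted with limma 3.58.1 in R 4.3.3 (14 residual and 1.63 prior degrees of freedom), with Benjamini-Hochberg adjustment at 0.05. A group under background gave a bound on the fold. No filter on low values was applied. The number of arrays limits the precision.

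Genes named were the 12 largest rises and 12 largest falls among called genes changed at least 2-fold without overlap, 12 fixed genes, and up to 4 members of each of 32 lists, and the genes added outside this rule are listed in the results. The members and lists were chosen with earlier results of these data known. In a simulation of the comparison of BIO then DMSO with BIO at 24 h over 18193 genes, 50 genes were planted at each size, and the fit recovered 40% at a log2 change of 0.5, 90% at 1, 100% at 2 and 94% at -1. It made 172 calls, 10 of them false, and 0 calls when no change was planted. The planted genes were drawn from those above the median mean signal, with independent normal noise, so recovery among dimmer genes was not simulated. Alternatives covered scaling, filter, probe set choice, arrays in the fit, weights, prior, replicate block, pseudocount, control covariates and leaving out arrays. Promoters were searched in Python 3.11.15, and matplotlib 3.10.9 was used for plots.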

Additional observations from a re-analysis of the deposited data

Results flagged for a closer look

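The second day differed between DMSO and BIO in 3711 genes, by the limma contrast of the 48 h groups, among them all 13 measured G2 and M phase genes. Of the named genes, 12 moved in opposite directions, each past the threshold on both days and in the test of the difference. The fitted difference of the DMSO day from the BIO day on the log2 scale was 6.79 for Slc26a7, which lay below background after 48 h of BIO (15.8, 24.2 and 34.3) and was at least 63.6-fold higher after DMSO, 5.26 for Foxc2, 3.26 for Fzd4, 3.06 for Cdh6, 2.86 for Hpgd, which degrades prostaglandins, 2.41 for Nid1, 1.81 for Dll1 and 1.08 for Lss. It was -4.15 for Wnt6 and -0.83 for Hk2, a hexokinase. For Wif1 (-7.24) and Mx1, an antiviral GTPase (-4.00), the arrays after the DMSO day were below background, so that they were at least 111-fold and at least 8.06-fold lower. Leaving out 1 array ended the BIO day call of Slc26a7 (adjusted p from 0.0874 to 0.111, without BIO 24 h replicate 1 or 3 or BIO 48 h replicate 1), Lss (0.0623 to 0.121, without BIO 24 h replicate 3 or BIO 48 h replicate 1 or 3), Hk2 (0.0579 to 0.0625, without BIO 24 h replicate 3 or BIO 48 h replicate 1), Mx1 (0.0696 to 0.115, without BIO 24 h replicate 1 or 3 or BIO 48 h replicate 1 or 2), Nid1 (0.0635 to 0.0954) and Dll1 (0.0513 to 0.125). With the beta-actin covariate the DMSO day calls of Wif1, Dll1, Hpgd, Lss, Mx1 and Hk2 were lost, with adjusted p from 0.0608 for Dll1 to 0.698 for Hk2. No group had more than 3 arrays, so single outlying arrays were not looked for by a gap test.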

How the results depend on the processing

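Leaving out 1 array at a time gave 3594 to 4089 called genes for the DMSO day (1323 to 1480 higher, 2239 to 2626 lower). Fitting only the arrays compared gave 2559 genes (979 higher, 1580 lower), 1708 for the BIO day (752 and 956) and 1820 between the 48 h groups (843 and 977). A minimum of 2-fold gave 1527 (712 and 815), 1266 (559 and 707) and 1452 (723 and 729). Testing every probe set gave 7980 (3501 and 4479) and 6057 for the BIO day with 2570 higher, and 2589 higher between the 48 h groups. The Gapdh ratio as a covariate gave 2932 genes with 1651 lower, and 1043 for the BIO day (584 and 459). The beta-actin covariate gave 850 (564 and 286), of which 743 were called without it, and 1516 for the BIO day (832 and 684). The deposited scaling gave 1783 lower genes. Of the 123 named genes, 70 kept call and direction with the beta-actin covariate, 48 lost the call and 5 turned, namely Malat1 (-1.33), Taok3 (-0.49), Tcf7l1 (-0.42), Lrp2 (-0.30) and Sox9 (-0.72). The mean of probe sets turned Cdkn1a (0.056) and Cdkn1b (0.81). All 123 kept theirs with a pseudocount of 16.

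The labels do not say whether same-numbered arrays shared a litter or culture, and the main fit did not pair them. Deviations of same-numbered arrays from their group means correlated at -0.23, -0.01 and -0.13 between the DMSO day and BIO 24 h arrays. The values were -0.11, -0.10 and -0.27 between the BIO groups and 0.12, -0.04 and 0.20 between the 48 h groups. Arrays of different number were not correlated for reference, so these values cannot decide whether the samples were paired. For the DMSO day the replicate block gave 4303 genes (1514 higher, 2789 lower). With 3 arrays a group and no 48 h DMSO group, the removal of BIO cannot be told apart from time, and folds of genes near background are bounds. List counts of 3 or fewer often moved by 1 or 2 genes when 1 array was left out. The cause of the differences between settings was not tested.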

Other observations

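Prostaglandin genes rose in part over the DMSO day, 4 of 9 measured (44.4%, against 8.66% of all genes), with 1 falling (11.1%, against 16.2%). Ptgs2, the inducible cyclooxygenase, gave 67.4, 39.7 and 77.5 after 24 h of BIO, 868, 1433 and 595 after the DMSO day and 96.2, 86.5 and 96.9 after the BIO day, against 2438, 3887 and 3695 in aggregates after 24 h of DMSO and 2.3, 2.5 and 2.6 in fresh cells. It rose by 3.91 ± 0.28 (adjusted p = 4.6e-08) with DMSO, where all 3 arrays were higher. Ptger4, a prostaglandin E2 receptor, rose by 1.86 ± 0.21 (adjusted p = 9.33e-06), from 307, 256 and 265 to 1153, 1263 and 689.8. Cyp1b1, a cytochrome P450, was the 1 gene of 7 aryl hydrocarbon receptor targets that changed, and rose by 1.98 ± 0.12 (adjusted p = 6.24e-09), from 1537, 1311 and 1676 to 5277, 7035 and 5584. BIO is an indirubin, a class known to bind that receptor, and Cyp1a1, its most used reporter, did not pass (-1.15 ± 0.95, adjusted p = 0.413).

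Of 15 immediate early genes 4 rose (26.7%) and 5 fell (33.3%), against 8.66% and 16.2% of all genes. Without replicate 1 or 3 of either group 3 fell. Ier3, an early response gene that limits apoptosis, rose by 1.89 ± 0.26 (adjusted p = 6.19e-05), and Fosl2, a member of the AP-1 family, rose by 1.29 ± 0.19 (adjusted p = 1e-04). Of 15 glycolysis and hypoxia genes 3 rose (20%) and 2 fell (13.3%, below the 16.2% of all genes). Adm, the peptide adrenomedullin, rose by 1.77 ± 0.25 (adjusted p = 8.54e-05), from 168, 90.5 and 113 to 376, 454 and 402. Of 6 interferon genes 2 fell (33.3%, against 16.2%), and 1 without BIO then DMSO replicate 1 or 3 or BIO 24 h replicate 3. Mx1 was at least 3.68-fold lower (-2.86 ± 0.36, adjusted p = 2.12e-05), a call lost with the beta-actin covariate (adjusted p = 0.0953).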
